A study of Mus musculus with 8 samples.

Results

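The NRF2, glutathione and peroxide defence genes are 36 mouse genes chosen by symbol from the table of expression values, and all 36 were found among its 55414 genes. They were followed in 8 RNA-seq libraries of B16F10, a mouse melanoma cell line, in 4 groups of 2 libraries. WT cells and CypD KO cells, in which Ppif (the gene of the mitochondrial chaperone cyclophilin D, CypD) was targeted with CRISPR/Cas9 under puromycin selection, were kept for 24 h at 21% O2. Control cells held a stable empty pcDNA vector and CypD OE cells held pcDNA-CypD; both were selected with G418 and kept for 24 h at 1% O2. CypD KO was therefore compared with WT, and CypD OE with Control, each at the same oxygen. No selection is described for WT, so in CypD KO minus WT the knockout cannot be told apart from selection or clone. Control differed from WT in oxygen, vector and selection, which cannot be told apart. How many clones stand behind each line is not given in the sources used here, nor whether the libraries of a group came from separate cultures, so p-values measure only the spread between these libraries, which may be technical.

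NRF2 (Nfe2l2) is a transcription factor held at low levels by KEAP1, which presents it for degradation. When electrophiles or oxidants modify KEAP1, NRF2 accumulates and binds antioxidant response elements (AREs) of genes for quinone reduction, glutathione synthesis, the thioredoxin system and NADPH supply. Superoxide dismutases turn superoxide into hydrogen peroxide, which catalase, glutathione peroxidases and peroxiredoxins remove. Glutathione and thioredoxin recharge the glutathione peroxidases and peroxiredoxins with electrons from NADPH. Mitochondria, the site of CypD, hold a set of their own: SOD2, PRDX3, TXN2 and TXNRD2.

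Values are TPM, the share of a gene's transcripts in the library total after correction for length, which allows levels of different genes to be compared and holds no read total, so the depth behind a value is unknown. Differences are on the log2(TPM + 1) scale, which understates changes of low genes. Adjusted p-values are from limma over the 13526 genes that reached 1 TPM in 2 or more libraries, and a difference was called at an adjusted p under 0.05. All 36 members passed this filter. Comparisons in which WT or Control recurs share those libraries, and only CypD KO minus WT and CypD OE minus Control are free of shared libraries.

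Ppif stood at 50.7 and 49.99 TPM in WT against 10.4 and 12.1 TPM in CypD KO. In Control it was at 44.6 and 42.3 TPM, and the libraries labelled CypD OE held 50.3 and 49.3 TPM. This log2 difference of 0.19 was not called (SE 0.07, adjusted p = 0.0794), so the RNA alone does not show overexpression. The paper reports western blots in which the selected CypD OE clones overexpressed the protein and the CypD KO clones lacked it. Directions drawn from the libraries labelled CypD OE rest on their label and on that report. Whether transcripts of the plasmid were counted on Ppif is not given in the sources used here. The 7 melanocyte markers were above 1 TPM in all 4 groups, summing to 12433 to 20984 TPM per library. The 4 keratinocyte and epithelial markers were at 0 in all 8 libraries, and endothelial markers summed to at most 1.18 TPM. The 5 leukocyte markers summed to 21.9 to 23.3 TPM in CypD KO against 1.13 to 4.81 TPM elsewhere, nearly all of it Cd68, while Cd3e and Adgre1 were at 0 throughout. The sum of the fibroblast markers was also highest in CypD KO (34.0 to 36.9 TPM, against 9.21 to 21.0 TPM), through Postn, with Dcn at 0. Col1a2 went the other way and was lowest in CypD KO (1.09 and 2.17 TPM, against 9.03 and 6.87 TPM in WT). Genes of mitochondrial DNA took 9.50% to 13.7% of TPM, with the highest group mean in the libraries labelled CypD OE (13.3%, against 9.76% in Control). The part of these differences in the results was not tested, and in bulk RNA fewer cells of a type and less RNA per cell cannot be told apart.

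Together the members held 5490 to 6435 TPM per library. In CypD KO minus WT, 13 of 36 members were called higher and 12 lower. Among all genes tested, 30.1% were called higher and 18.4% lower, so the share of members called higher (36.1%) was near the background and the share called lower (33.3%) was above it. In CypD OE minus Control, 13 members were called higher and 6 lower, against a background of 19.0% higher and 18.3% lower. In Control minus WT, 2 members were called higher and 17 lower (47.2% of the members), against 12.1% of all genes in each direction. The median difference of the members was 0.03, 0.03 and -0.14 in these comparisons, beside 0.09, 0.00 and 0.01 over all genes. Dividing TPM by median-of-ratios size factors changed the split of all genes in CypD KO minus WT from 4066 higher and 2486 lower to 3290 higher and 3364 lower, and that of the members to 12 higher and 15 lower. Leaving genes of mitochondrial DNA out of the total changed the split of all genes in CypD OE minus Control from 2576 higher and 2481 lower to 3226 higher and 2121 lower, and that of the members to 15 higher and 6 lower.

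**Figure D1:**
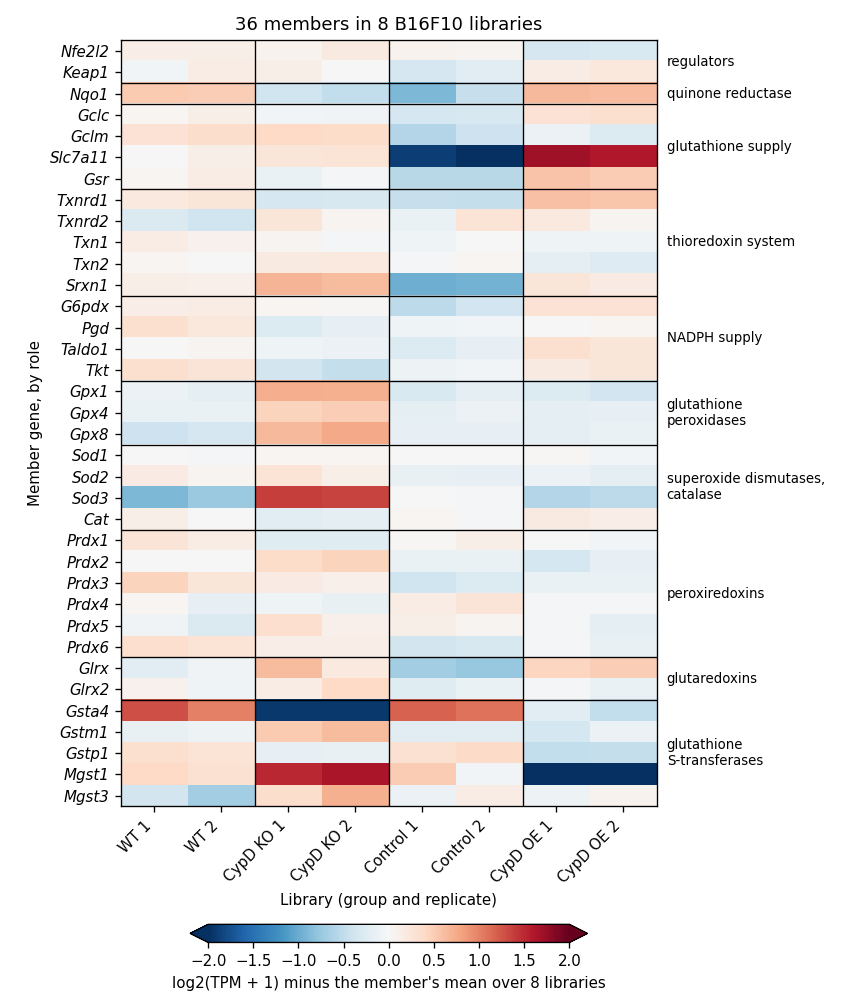
Level of each of the 36 members (rows, by role) in the 8 libraries (columns), as log2(TPM + 1) minus the member's mean over the 8 libraries; red is above and blue below that mean. Slc7a11 is lowest in Control and highest in the libraries labelled CypD OE, the glutathione peroxidases and Sod3 are highest in CypD KO, and Mgst1 is lowest in the libraries labelled CypD OE.

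Neither regulator differed between CypD KO and WT beyond the spread of the libraries. Nfe2l2 stood at 134 and 132 TPM in WT, 129 and 139 TPM in CypD KO, 129 and 127 TPM in Control, and 96.3 and 98.4 TPM in those labelled CypD OE. The WT and CypD KO libraries overlapped (log2 difference 0.01, SE 0.04, adjusted p = 0.935), whereas both libraries labelled CypD OE lay below both Control libraries (-0.39, SE 0.04, adjusted p = 0.00066). Keap1 was at 18.8 and 21.8 TPM in WT, 21.4 and 19.4 TPM in CypD KO, 15.4 and 16.7 TPM in Control, and 21.9 and 22.9 TPM in those labelled CypD OE. Its libraries again overlapped between WT and CypD KO (0.01, SE 0.09, adjusted p = 0.954), and it was called higher in CypD OE than in Control (0.46, SE 0.09, adjusted p = 0.00844). That call was lost without CypD OE replicate 2 (0.43, adjusted p = 0.0511). Keap1 was also called lower in Control than in WT (-0.32, SE 0.09, adjusted p = 0.0472), a call lost in 11 of 16 alternative settings (adjusted p = 0.0622 to 0.192), among them each setting that left out 1 library other than WT replicate 1.

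Glutathione supply held the member with the largest difference in CypD OE minus Control. All 4 genes of the group were called higher there, against 19.0% of all genes tested. All 4 were also called lower in Control than in WT, against 12.1% of all genes. Slc7a11, the cystine importer of system xc- (chr3:49846975-50398070, minus strand, GRCm39), was at 1.68 and 1.40 TPM in Control against 31.0 and 28.8 TPM in those labelled CypD OE. It was at 8.82 and 9.69 TPM in WT against 10.6 and 11.0 TPM in CypD KO. The Control libraries were below all others and those labelled CypD OE above all others. The ratio of the CypD OE to the Control mean was 19.4, a log2 difference of 3.61 (SE 0.10, adjusted p = 1.73e-06), and the Control mean was 16.6% of the WT mean (-2.01, SE 0.10, adjusted p = 5.15e-05). In CypD KO minus WT, the difference of 0.20 was not called (SE 0.10, adjusted p = 0.13), although both CypD KO libraries lay above both WT libraries.

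Gsr, the reductase that regenerates glutathione, was at 50.1 and 53.9 TPM in WT, 44.4 and 47.8 TPM in CypD KO, 32.8 and 32.8 TPM in Control, and 72.7 and 69.9 TPM in those labelled CypD OE. Control was the lowest group and CypD OE the highest, with no overlap (CypD OE minus Control 1.10, SE 0.06, adjusted p = 2.93e-05). Gclc, the catalytic subunit of glutamate-cysteine ligase, which performs the first step of glutathione synthesis, was at 43.5 and 46.1 TPM in WT, 40.8 and 40.2 TPM in CypD KO, 33.5 and 33.9 TPM in Control, and 51.8 and 53.4 TPM in those labelled CypD OE. It was ordered in the same way (0.63, SE 0.05, adjusted p = 0.000143). Gclm, the modifier subunit of the same enzyme, ranged from 68.3 to 77.1 TPM in Control, from 84.9 to 94.98 TPM in those labelled CypD OE, and from 127 to 137 TPM over the 4 libraries at 21% O2. It was called higher in CypD OE than in Control (0.30, SE 0.07, adjusted p = 0.0168), but not without Control replicate 1 (0.22, adjusted p = 0.0785) or without CypD OE replicate 1 (0.22, adjusted p = 0.0879). Summed over the 4 genes, glutathione supply held 229 to 241 TPM in WT, 232 and 233 TPM in CypD KO, 136 and 145 TPM in Control, and 250.5 and 237 TPM in those labelled CypD OE.

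In CypD KO minus WT, Gsr (-0.17, SE 0.06, adjusted p = 0.0471) and Gclc (-0.14, SE 0.05, adjusted p = 0.0491) were called lower by a narrow margin. Both calls were lost in 10 of 16 alternative settings. The adjusted p then ran from 0.0647 to 0.21 for Gclc, which lost its call without any single library other than WT replicate 1, and from 0.0606 to 0.212 for Gsr, which lost it without any single library other than WT replicate 1 and CypD KO replicate 2.

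Nqo1, the quinone reductase commonly read as a marker of NRF2 activity (chr8:108113835-108129934, minus strand), was at 7.04 and 6.87 TPM in WT, 3.24 and 2.97 TPM in CypD KO, 2.01 and 3.06 TPM in Control, and 7.81 and 7.56 TPM in those labelled CypD OE. The WT and CypD OE libraries formed the high end and the CypD KO and Control libraries the low end, without overlap in either comparison. Nqo1 was called lower in CypD KO than in WT (-0.96, SE 0.15, adjusted p = 0.00236) and higher in CypD OE than in Control (1.31, SE 0.15, adjusted p = 0.0009).

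In the thioredoxin system, Txnrd1, the cytosolic thioredoxin reductase and a selenoprotein (chr10:82669785-82733546, plus strand), followed the same order. It was at 313 and 324 TPM in WT, 217 and 218 TPM in CypD KO, 199 and 196 TPM in Control, and 412 and 404 TPM in those labelled CypD OE. In CypD KO it averaged 68.2% of the WT level (-0.55, SE 0.03, adjusted p = 1.93e-05), and the ratio of the CypD OE to the Control mean was 2.07 (1.05, SE 0.03, adjusted p = 2.02e-06). Srxn1, which reduces overoxidised peroxiredoxins, was at 45.8 and 45.4 TPM in WT, 68.1 and 66.0 TPM in CypD KO, 20.9 and 21.5 TPM in Control, and 50.5 and 47.3 TPM in those labelled CypD OE. Unlike Nqo1 and Txnrd1 it was called higher in both comparisons, in CypD KO by 0.55 (SE 0.05, adjusted p = 0.000182) and in CypD OE by 1.17 (SE 0.05, adjusted p = 1.2e-05). Its Control libraries were below those of every other group.

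Of the genes for NADPH supply by the pentose phosphate pathway, 4 of 4 were called lower in Control than in WT (12.1% of all genes). Called higher in CypD OE than in Control were 3 of 4, against 19.0% of all genes. Called lower in CypD KO than in WT were 2 of 4, against 18.4%. G6pdx, the entry enzyme of the pathway, was at 99.1 and 99.9 TPM in WT, 92.8 and 91.6 TPM in CypD KO, 62.8 and 69.1 TPM in Control, and 110.4 and 110.2 TPM in those labelled CypD OE. Its groups did not overlap (CypD OE minus Control 0.74, SE 0.05, adjusted p = 8.21e-05; CypD KO minus WT -0.11, SE 0.05, adjusted p = 0.109). Taldo1, a transaldolase of the non-oxidative branch, was at 151 and 155 TPM in WT, 141 and 138 TPM in CypD KO, 123 and 133 TPM in Control, and 187 and 177 TPM in those labelled CypD OE. The latter were the highest (CypD OE minus Control 0.50, SE 0.05, adjusted p = 0.000384). Taldo1 lost its lower call in Control minus WT (-0.25, SE 0.05, adjusted p = 0.0114) without WT replicate 2 or Control replicate 1 (adjusted p = 0.0633 and 0.0509). Under median-of-ratios scaling, both G6pdx (-0.21, adjusted p = 0.00784) and Taldo1 (-0.23, adjusted p = 0.00385) were also called lower in CypD KO than in WT, as they were without either Control replicate (adjusted p = 0.043 and 0.0433 for G6pdx, 0.0407 and 0.0408 for Taldo1).

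Tkt, the transketolase of the same branch, was at 180 and 174 TPM in WT, 112 and 104 TPM in CypD KO, 134 and 139 TPM in Control, and 164 and 172 TPM in those labelled CypD OE. Its lowest values were those of CypD KO, at 60.9% of the WT mean (-0.71, SE 0.05, adjusted p = 5.34e-05), and it was called higher in CypD OE than in Control (0.30, SE 0.05, adjusted p = 0.00375). Pgd, which yields the second NADPH of the pathway, ranged from 153 to 165 TPM in WT and from 109 to 117 TPM in CypD KO (-0.49, SE 0.05, adjusted p = 0.000359). Its difference of 0.09 between CypD OE and Control was not called (SE 0.05, adjusted p = 0.241).

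**Figure D2:**
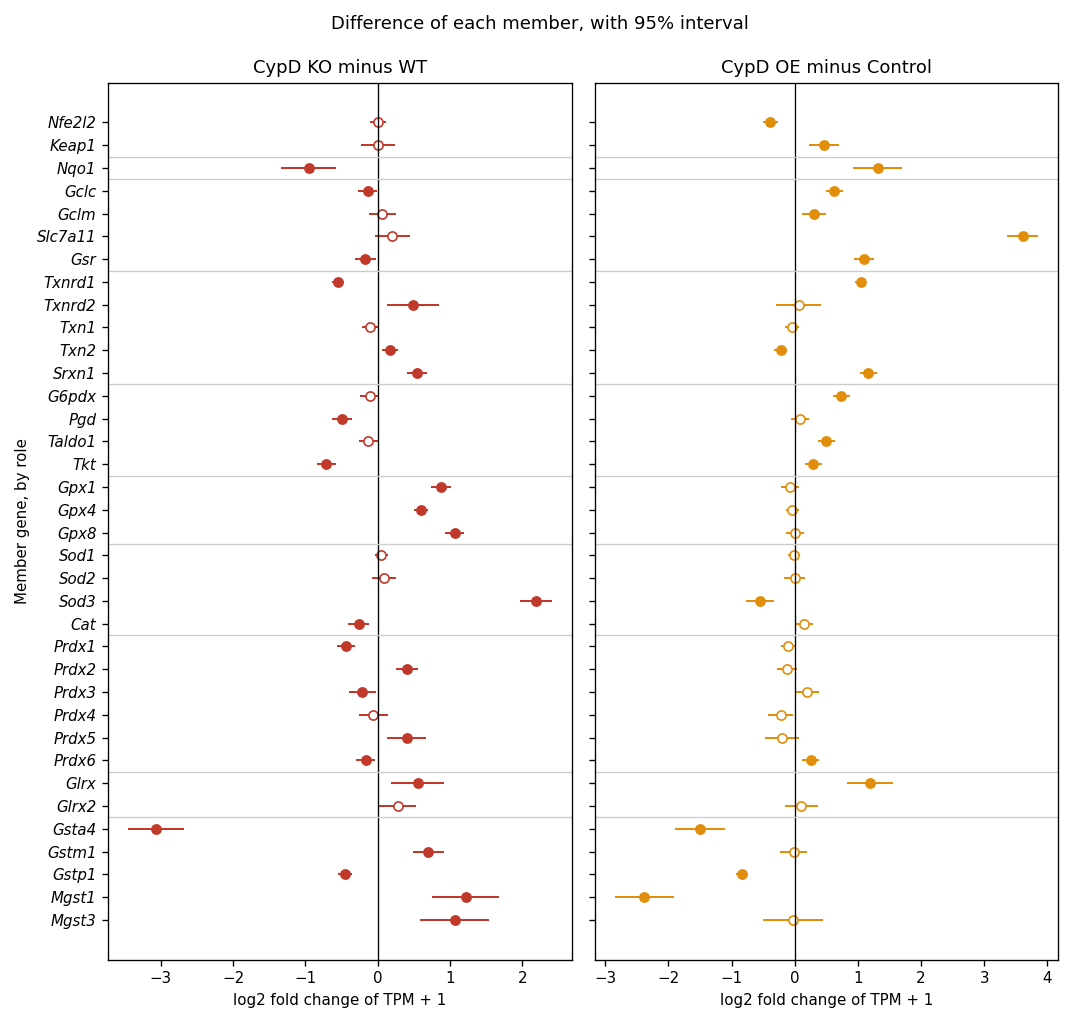
Log2 fold change of TPM + 1 for each member (rows, by role) in CypD KO minus WT (left) and in CypD OE minus Control (right), with 95% intervals from the limma fit; filled points were called at an adjusted p under 0.05 and open points were not. Glutathione supply and 3 of the 4 NADPH genes lie to the right in CypD OE minus Control, whereas the 3 glutathione peroxidases lie to the right in CypD KO minus WT and near 0 in CypD OE minus Control, and the fitted value of Gsta4 on the left rests on CypD KO libraries listed at 0.

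Since several of these genes are known NRF2 targets, the promoter windows of the members, 250 bases before to 50 after the annotated start in RefSeq (GRCm38.p6 table), were searched on both strands for the ARE core TGACNNNGC. Windows were available for 31 members; Gclc, Gsr, Gsta4, Prdx6 and Sod3 had none. All 43 windows were found once in GRCm39. The core occurred in a window of 9 of the 31 members (29.0%), against 3781 of the 27025 genes in the table. Among the members called higher in CypD OE than in Control, it occurred in 4 of 10, and among the others in 5 of 21 (Nfe2l2, Pgd, Sod1, Prdx1 and Mgst1). The sites of the 4 members are shown because these genes were called higher in CypD OE than in Control, the comparison they were picked from, with 10 bases on each side, the core in capitals, and on the strand on which it reads TGACNNNGC (GRCm39).
Gclm, chr3:122039062-122039090, minus strand: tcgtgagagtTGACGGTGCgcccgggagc
Txnrd1, chr10:82694938-82694966, minus strand: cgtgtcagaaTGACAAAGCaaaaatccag
Srxn1, chr2:151947462-151947490, minus strand: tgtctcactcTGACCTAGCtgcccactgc
G6pdx, chrX:73472525-73472553, plus strand: gcgtgtgcttTGACTGAGCtgacccgcct
Counted along the gene, the core began 134 bases upstream of the annotated start in Gclm, 92 upstream in Txnrd1 (in 1 of its 3 windows) and 57 upstream in G6pdx, while in Srxn1 it lay in the first transcribed bases. Of the members' other cores, that of Prdx1 also holds the AP-1 word TGACTCA:
Prdx1, chr4:116542653-116542681, minus strand: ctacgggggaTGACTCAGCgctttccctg
The core of the hypoxia response element, ACGTG or GCGTG, occurred in a window of 23 of the 31 members (74.2%), against 46.7% of all genes in the table, and one stands in the flank of the G6pdx site. The genes in the table include ones that did not pass the expression filter, whereas all members passed it. The 31 members also had 43 windows, against 32851 windows for the 27025 genes. The shares of either core are therefore not set against a matched background. A match is a description of the letters, not of binding.

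Of the glutathione peroxidase family, all 3 members were called higher in CypD KO than in WT, against 30.1% of all genes tested. None was called in CypD OE minus Control, where 37.4% of all genes were called. Gpx1, the major cellular enzyme and a selenoprotein (chr9:108216102-108217546, plus strand), was at 162 and 156 TPM in WT, 295 and 291 TPM in CypD KO, 143 and 155 TPM in Control, and 147 and 136 TPM in those labelled CypD OE. The CypD KO libraries stood above the other 6, and the ratio to the WT mean was 1.84 (0.88, SE 0.05, adjusted p = 3.19e-05). Gpx4, the selenoprotein that reduces lipid hydroperoxides and protects from ferroptosis (chr10:79883000-79892273, plus strand), was at 300.9 and 300.9 TPM in WT, 449 and 465 TPM in CypD KO, 292 and 305 TPM in Control, and 288 and 294 TPM in those labelled CypD OE. It showed the same pattern, with a ratio of 1.52 (0.60, SE 0.03, adjusted p = 2.22e-05).

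Gpx8, a peroxidase of the endoplasmic reticulum membrane (chr13:113178829-113183292, minus strand), was at 85.0 and 89.7 TPM in WT, 177 and 191 TPM in CypD KO, 101.02 and 100.62 TPM in Control, and 98.6 and 104 TPM in those labelled CypD OE. The ratio of the CypD KO to the WT mean was 2.11 (1.07, SE 0.05, adjusted p = 1.14e-05). In CypD OE minus Control, the differences of Gpx1, Gpx4 and Gpx8 were -0.07, -0.04 and 0.00 (adjusted p = 0.326, 0.449 and 0.971), with overlapping libraries in each case; the difference between the 2 comparisons was not tested. Gpx8 was also called higher in Control than in WT (0.20, SE 0.05, adjusted p = 0.0284), a call lost when any 1 WT or Control library was left out (adjusted p = 0.0519 to 0.128). Together the 3 genes held 548 and 546 TPM in WT, 921 and 947 TPM in CypD KO, and 533 to 561 TPM in the other 4 libraries.

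Among the superoxide dismutases, the extracellular Sod3 (chr5:52521070-52528883, plus strand) differed most. It was at 4.94 and 5.62 TPM in WT, 27.9 and 27.2 TPM in CypD KO, 10.1 and 9.87 TPM in Control, and 6.38 and 6.71 TPM in those labelled CypD OE. No groups overlapped. The ratio of the CypD KO to the WT mean was 5.21 (2.19, SE 0.09, adjusted p = 5.57e-06), that of CypD OE to Control was 0.654 (-0.54, SE 0.09, adjusted p = 0.00315), and that of Control to WT was 1.89 (0.81, SE 0.09, adjusted p = 0.00119). Cat, the catalase of peroxisomes, ranged from 55.7 to 60.9 TPM in WT and from 47.7 to 49.1 TPM in CypD KO (-0.26, SE 0.06, adjusted p = 0.00775). It reached 61.4 and 63.6 TPM in those labelled CypD OE, a difference of 0.15 from Control that was not called (SE 0.06, adjusted p = 0.0822) unless genes of mitochondrial DNA were left out of the total (0.20, adjusted p = 0.0261).

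**Figure D3:**
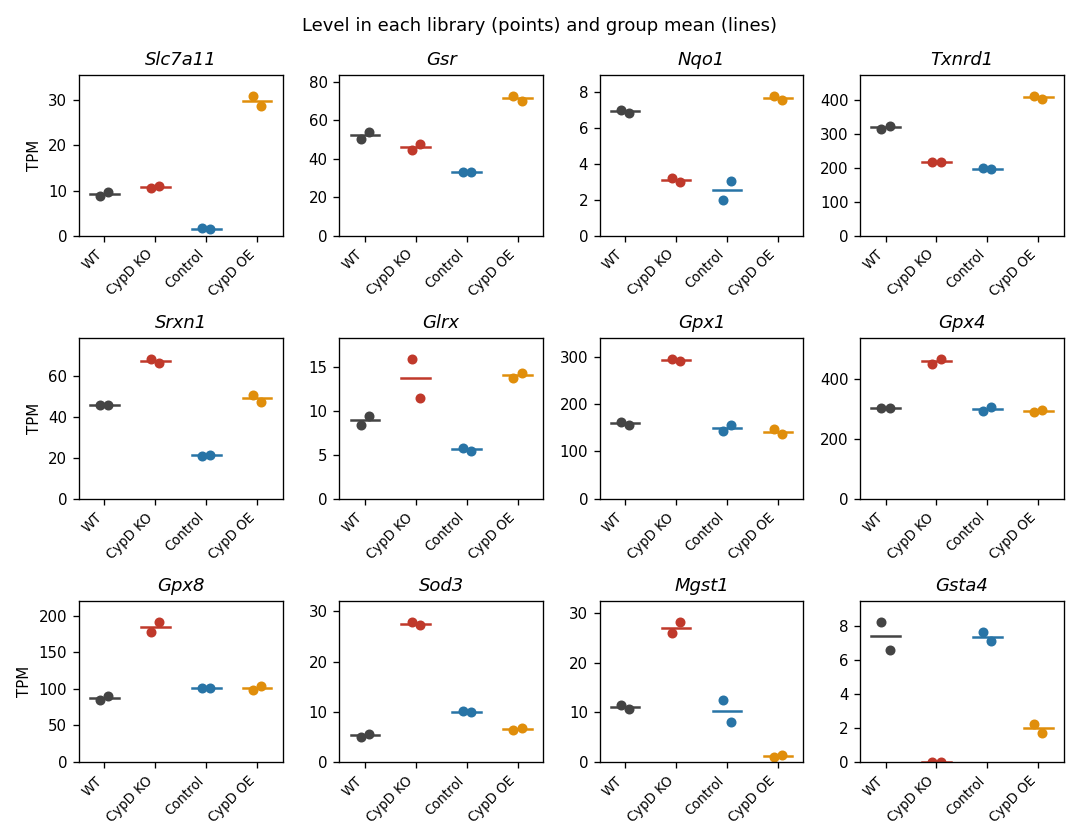
TPM (vertical axes, from 0) of 12 members in the 8 libraries by group; points are libraries and lines are group means of 2. Slc7a11, Gsr, Nqo1 and Txnrd1 are lower in Control than in the libraries labelled CypD OE, Gpx1, Gpx4, Gpx8, Sod3 and Mgst1 are highest in CypD KO, and Gsta4 is listed at 0 in both CypD KO libraries.

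Peroxiredoxins, the most abundant of these peroxide scavengers, moved in both directions. In CypD KO minus WT, Prdx1 (-0.44, SE 0.04, adjusted p = 0.000283), Prdx3 and Prdx6 (-0.16, SE 0.05, adjusted p = 0.03) were called lower and Prdx2 (0.41, SE 0.06, adjusted p = 0.0016) and Prdx5 (0.40, SE 0.11, adjusted p = 0.0198) higher, while Prdx4, of the endoplasmic reticulum, had overlapping libraries (-0.06, SE 0.08, adjusted p = 0.561). Prdx1, the cytosolic enzyme, was at 1688 and 1571 TPM in WT, 1200 and 1204 TPM in CypD KO, 1441 and 1539 TPM in Control, and 1410 and 1367 TPM in those labelled CypD OE. It was the most abundant member, and its CypD KO libraries were the lowest. The summed level of the 6 genes was accordingly 2155 to 2310 TPM in WT and 1798 to 1800 TPM in CypD KO. The Prdx6 call was lost when any 1 WT or CypD KO library was left out (adjusted p = 0.0502 to 0.142), and the Prdx5 call without WT replicate 2 (0.29, adjusted p = 0.104) or CypD KO replicate 1 (0.28, adjusted p = 0.11).

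In CypD OE minus Control, Prdx6 was the one peroxiredoxin called (0.25, SE 0.05, adjusted p = 0.0073), with 201 and 209 TPM in Control and 255 and 233 TPM in those labelled CypD OE, below the 313 and 327 TPM of WT. The difference of Prdx4 (-0.22, SE 0.08, adjusted p = 0.0592) was called under median-of-ratios scaling (-0.23, adjusted p = 0.0493) and without either WT replicate (adjusted p = 0.0297 and 0.0294). The difference of Prdx2 between CypD OE and Control (-0.12, SE 0.06, adjusted p = 0.158) was called without CypD OE replicate 2 (-0.21, adjusted p = 0.0281). In Control minus WT, Prdx4 was called higher without WT replicate 1 (0.36, adjusted p = 0.0267).

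Glutaredoxins remove glutathione from protein thiols. The cytosolic Glrx was at 8.42 and 9.50 TPM in WT, 15.97 and 11.5 TPM in CypD KO, 5.80 and 5.46 TPM in Control, and 13.9 and 14.4 TPM in those labelled CypD OE. The Control libraries were the lowest of all, and Glrx was called higher in CypD OE than in Control (1.19, SE 0.15, adjusted p = 0.00115) and in CypD KO than in WT (0.55, SE 0.15, adjusted p = 0.0201). The latter rested on CypD KO replicate 1, without which the difference was 0.33 (adjusted p = 0.0765), and on WT replicate 1, without which it was 0.47 (adjusted p = 0.0984). Glrx was also called lower in Control than in WT (-0.59, SE 0.15, adjusted p = 0.0307), a call lost when any 1 WT, Control or CypD OE library was left out (adjusted p = 0.0548 to 0.134). Glrx2 ranged from 35.7 to 56.8 TPM and was called in none of the 3 comparisons described, but it was called higher in CypD KO than in WT without CypD KO replicate 1 (0.40, adjusted p = 0.0238) and with a filter of 5 TPM (0.28, adjusted p = 0.0487).

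Glutathione S-transferases, which couple glutathione to electrophiles, held opposite changes side by side. Gsta4, an alpha-class enzyme that acts on lipid peroxidation products such as hydroxynonenal (chr9:78090056-78117763, plus strand), was at 8.22 and 6.60 TPM in WT, 7.63 and 7.09 TPM in Control, and 2.25 and 1.69 TPM in those labelled CypD OE, and was listed at 0 in both CypD KO libraries. It was called lower in CypD KO (adjusted p = 1.55e-05) and in CypD OE (-1.50, SE 0.16, adjusted p = 0.000534), and no fold is given against a group listed at 0. Mgst1, a membrane-bound transferase that also reduces lipid hydroperoxides (chr6:138117314-138133774, plus strand), was at 11.5 and 10.6 TPM in WT, 25.9 and 28.2 TPM in CypD KO, 12.4 and 8.12 TPM in Control, and 0.940 and 1.33 TPM in those labelled CypD OE. The CypD KO libraries were the highest (1.22, SE 0.19, adjusted p = 0.00199) and the CypD OE libraries the lowest, at 11.0% of the Control mean (-2.38, SE 0.19, adjusted p = 0.00017).

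Gstp1, the pi-class enzyme and after Prdx1 the most abundant member, was at 849 and 822 TPM in WT, 608 and 610.1 TPM in CypD KO, 838 and 890.3 TPM in Control, and 480.2 and 488 TPM in those labelled CypD OE. It was called lower in both comparisons, in CypD KO by -0.46 (SE 0.03, adjusted p = 8.12e-05) and in CypD OE by -0.83 (SE 0.03, adjusted p = 1.06e-05). Gstm1, of the mu class, was at 29.8 and 30.6 TPM in WT, 47.8 and 51.7 TPM in CypD KO, 28.1 and 28.6 TPM in Control, and 25.9 and 30.5 TPM in those labelled CypD OE, and only CypD KO stood apart (0.70, SE 0.08, adjusted p = 0.000582). Mgst3 was at 2.31 and 1.62 TPM in WT, 4.41 and 6.0 TPM in CypD KO, 2.93 and 3.72 TPM in Control, and 2.97 and 3.47 TPM in those labelled CypD OE. Of the 3 comparisons described, it was called in CypD KO minus WT (1.06, SE 0.19, adjusted p = 0.00398). None of the 5 transferases was called in Control minus WT. Several members have close paralogues or processed pseudogenes, between which the authors' estimation divides shared reads, so the values of the transferases in particular are uncertain to that extent.

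The 4 mitochondrial enzymes were then set beside their cytosolic counterparts. Sod2, the manganese dismutase of the matrix, was at 88.2 and 82.1 TPM in WT, 95.7 and 85.9 TPM in CypD KO, 71.4 and 70.3 TPM in Control, and 72.4 and 69.2 TPM in those labelled CypD OE. Sod1, its cytosolic counterpart, ranged from 458 to 491 TPM over the 8 libraries and was called in none of the 3 comparisons described. Neither enzyme was called in CypD KO minus WT (Sod2 0.09, SE 0.06, adjusted p = 0.284; Sod1 0.05, SE 0.03, adjusted p = 0.221) or in CypD OE minus Control (adjusted p = 0.991 and 0.743). Sod2 was called lower in Control than in WT (-0.26, SE 0.06, adjusted p = 0.0258), a call lost without WT replicate 1 (-0.21, adjusted p = 0.122) or either Control replicate (-0.27 and -0.25, adjusted p = 0.0847 and 0.104).

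Prdx3, the peroxiredoxin of the matrix, was at 112 and 98.2 TPM in WT, 92.2 and 88.5 TPM in CypD KO, 62.3 and 68.4 TPM in Control, and 75.4 and 74.9 TPM in those labelled CypD OE. It was highest in WT and lowest in Control (Control minus WT -0.68, SE 0.07, adjusted p = 0.00126). The call in CypD KO minus WT (-0.21, SE 0.07, adjusted p = 0.0476) was lost in 9 of 16 alternative settings, and without WT replicate 1 the difference was -0.12 (adjusted p = 0.22). The other libraries whose removal lost it were both of CypD KO (-0.24 and -0.18, adjusted p = 0.0985 and 0.183) and both labelled CypD OE. In CypD OE minus Control the difference of 0.20 was not called (SE 0.07, adjusted p = 0.072), although it was without either WT replicate (adjusted p = 0.0371 and 0.0369) and when genes of mitochondrial DNA were left out of the total (0.26, adjusted p = 0.0276).

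Txn2, mitochondrial thioredoxin, was at 152 and 149 TPM in WT, 168 and 171 TPM in CypD KO, 147 and 153 TPM in Control, and 132 and 125 TPM in those labelled CypD OE. It was the one mitochondrial enzyme called in both comparisons, higher in CypD KO (0.17, SE 0.04, adjusted p = 0.011) and lower in CypD OE (-0.23, SE 0.04, adjusted p = 0.0048). The CypD KO call did not hold under median-of-ratios scaling (0.07, adjusted p = 0.146), without WT replicate 2 (0.15, adjusted p = 0.0602) or without CypD KO replicate 2 (0.16, adjusted p = 0.0585). Txn1, cytosolic thioredoxin, ranged from 406 to 478 TPM and, of the 3 comparisons described, was called in Control minus WT (-0.16, SE 0.04, adjusted p = 0.0311), which was lost in 9 of 16 alternative settings (adjusted p = 0.0531 to 0.141), among them those without either WT replicate, Control replicate 1 or either CypD OE replicate. Under median-of-ratios scaling it was also called lower in CypD KO than in WT (-0.20, adjusted p = 0.00382).

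Txnrd2, the mitochondrial thioredoxin reductase and a selenoprotein, was at 17.1 and 15.7 TPM in WT, 25.1 and 21.7 TPM in CypD KO, 19.0 and 25.6 TPM in Control, and 24.3 and 21.98 TPM in those labelled CypD OE. The WT libraries were the lowest (CypD KO minus WT 0.49, SE 0.14, adjusted p = 0.0275), but the call was lost without either WT replicate (0.55 and 0.43, adjusted p = 0.0636 and 0.12) and without CypD KO replicate 1 (0.39, adjusted p = 0.143). The difference between Control and WT (0.41, SE 0.14, adjusted p = 0.0809) was called without Control replicate 1 (0.62, adjusted p = 0.0253). Several members, among them Gclm, G6pdx, Sod1, Prdx2, Prdx4, Prdx5 and Glrx2, overlap expressed genes on the opposite strand, and whether reads were counted by strand is not given in the sources used here.

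As a ratio of TPM + 1 on the log2 scale, mitochondrial over cytosolic, the thioredoxin reductases differed most. Txnrd2 over Txnrd1 was -4.20 ± 0.12 in WT, -3.17 ± 0.14 in CypD KO, -3.10 ± 0.30 in Control and -4.08 ± 0.08 in those labelled CypD OE (SD, n = 2). CypD KO thus exceeded WT by 1.04, and CypD OE was below Control by 0.98, without overlap of libraries. In CypD KO minus WT, Txnrd1 differed by -0.55 and Txnrd2 by 0.49, so both partners contributed; in CypD OE minus Control they differed by 1.05 and 0.06. Txn2 over Txn1 differed in the same directions by 0.28 and -0.18.

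Prdx3 over Prdx1 was higher by 0.22 in CypD KO and by 0.30 in CypD OE, and lower by -0.55 in Control than in WT. Its direction in CypD KO depended on the cytosolic reference, because Prdx3 over the mean log2 level of Prdx1, Prdx2 and Prdx6 differed by -0.15. Sod2 over Sod1 differed by 0.04 in CypD KO minus WT, with overlapping libraries (-0.04 without CypD KO replicate 1 and 0.11 without CypD KO replicate 2), and by 0.01 in CypD OE minus Control. Averaged over the 4 pairs, the ratio was -3.06 ± 0.06 in WT, -2.67 ± 0.06 in CypD KO, -2.95 ± 0.08 in Control and -3.16 ± 0.03 in those labelled CypD OE (SD, n = 2), a difference of 0.39 in CypD KO minus WT and of -0.21 in CypD OE minus Control. Both differences lean on Txnrd2 over Txnrd1 (1.04 and -0.98). In CypD OE minus Control, Txn2 over Txn1 went the same way (-0.18), whereas Prdx3 over Prdx1 (0.30) and Sod2 over Sod1 (0.01) did not. Exact permutation of 2 libraries against 2 (two-sided) has 0.333 as its lowest p, which was obtained for these mean ratios, so this design cannot pass 0.05 for a single value. Removing Control replicate 2 changed the difference of the mean ratio between Control and WT from 0.11 to 0.05, and removing WT replicate 2 changed it to 0.07.

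**Figure D4:**
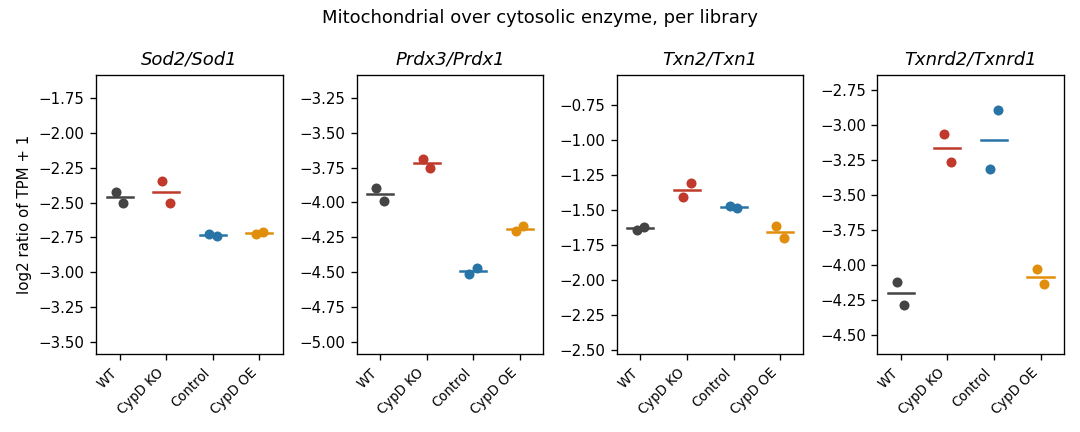
Log2 ratio of mitochondrial to cytosolic TPM + 1 for 4 pairs of enzymes in each library by group; points are libraries, lines are group means of 2, and each vertical axis spans 2 log2 units. The ratio of Txnrd2 to Txnrd1 is near -3.1 in CypD KO and Control and near -4.1 in WT and in the libraries labelled CypD OE, whereas that of Sod2 to Sod1 differs by 0.04 between CypD KO and WT.

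In Control minus WT, the 17 members called lower ran from Txn1 at -0.16 to Slc7a11 at -2.01. Below -0.6 were also Nqo1 (-1.19, SE 0.15, adjusted p = 0.00263), Srxn1 (-1.07, SE 0.05, adjusted p = 4.53e-05), Gclm (-0.82, SE 0.07, adjusted p = 0.000546), Txnrd1 (-0.69, SE 0.03, adjusted p = 3.09e-05), Prdx3, Gsr (-0.65, SE 0.06, adjusted p = 0.000546) and Prdx6 (-0.64, SE 0.05, adjusted p = 0.000342). These genes of glutathione supply, quinone reduction, the thioredoxin system and peroxiredoxins were thus lower in the cells at 1% O2 with the empty vector than in WT cells at 21% O2. Sod3 and Gpx8 were the 2 members called higher.

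Set against each other, CypD KO minus WT and CypD OE minus Control, which share no library, called 13 members in both. Lower in CypD KO and higher in CypD OE were 6 members (16.7%), Nqo1, Txnrd1, Tkt, Prdx6, Gsr and Gclc, against 5.13% of all genes tested. Of these, the CypD KO calls of Prdx6, Gsr and Gclc were among those lost in other settings. Higher in CypD KO and lower in CypD OE were 3 members (8.33%), Txn2, Mgst1 and Sod3, near the background of 7.61%. Glrx and Srxn1 were higher in both, and Gsta4 and Gstp1 lower in both, 5.56% of the members each, against 6.57% and 4.0% of all genes.

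Of a wider list of 90 other genes of the pathway, 89 were found, in 90 rows, and 79 rows were tested. In CypD KO minus WT, 39 were called higher and 13 lower, with a median difference of 0.19, beside 30.1% higher, 18.4% lower and a median of 0.09 over all genes tested. Txnip, the inhibitor of thioredoxin, was at 9.68 and 10.6 TPM in WT against 110.9 and 110.9 TPM in CypD KO (3.33, SE 0.09, adjusted p = 1.57e-06). Hmox1, haem oxygenase 1, was at 38.8 and 40.8 TPM in WT against 192 and 193 TPM in CypD KO (2.25, SE 0.05, adjusted p = 8.3e-07). The other genes with the largest differences were also higher in CypD KO, namely Nox4, an NADPH oxidase that makes hydrogen peroxide (1.86, SE 0.10, adjusted p = 2.21e-05), Ero1a, the oxidase of disulfide formation in the endoplasmic reticulum (1.77, SE 0.06, adjusted p = 3.79e-06), and Ggt1, which breaks down extracellular glutathione (1.59, SE 0.17, adjusted p = 0.000351). Unlike Nox4, the oxidase subunit gene Cyba was lower in CypD KO (3.96 and 4.19 TPM) than in WT (10.2 and 11.2 TPM). Nqo1 and Hmox1, both widely used as NRF2 target genes, thus differed in opposite directions in CypD KO cells.

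In CypD OE minus Control, 23 genes of the wider list were called higher and 23 lower, with a median difference of 0.02, beside 19.0% higher, 18.3% lower and a median of 0.00 over all genes tested. Txnip was at 82.1 and 81.5 TPM in Control against 8.76 and 7.10 TPM in those labelled CypD OE (-3.22, SE 0.09, adjusted p = 2.22e-06), and Ggt1 was at 10.4 and 8.77 TPM against 1.53 and 0.840 TPM (-2.29, SE 0.17, adjusted p = 0.000123). Both differed from their CypD KO direction. Cyba, the p22phox subunit shared by NADPH oxidases, was at 12.3 and 12.6 TPM in Control and listed at 0 in both libraries labelled CypD OE (adjusted p = 1.97e-06); as for Gsta4 in CypD KO, TPM cannot tell whether a listed 0 is an absent transcript or a failed estimate. Gsta2 was at 18.8 and 20.7 TPM in Control against 2.99 and 0.120 TPM in those labelled CypD OE (-3.29, SE 0.54, adjusted p = 0.00359). Blvrb, a biliverdin reductase, was at 3.87 and 3.93 TPM in Control against 19.6 and 20.9 TPM in those labelled CypD OE (2.12, SE 0.09, adjusted p = 1.2e-05). In Control minus WT, 11 genes of the wider list were called higher and 17 lower, with a median difference of -0.08, beside 12.1% of all genes tested in each direction and a median of 0.01.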

How the data were processed

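Total RNA of B16F10 cells was depleted of ribosomal RNA and sequenced in paired-end reads. Per the methods and labels, reads were trimmed by Cutadapt 3.4 and mapped to Ensembl GRCm39 by STAR 2.7.8a, and the authors obtained TPM from RSEM 1.3.1. The deposited TPM sum to 1000000 in each library and have 2 decimals, with 0.01 as the smallest value above 0. DESeq2 1.26.0 on read counts served the authors' own tests; counts were not used here, and TPM hold no depth. TPM depend on all other genes of a library.

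Groups were taken from the sample labels, and 0 columns were left without a sample. The 13526 genes that reached 1 TPM in 2 or more libraries were tested by limma 3.58.1 (R 4.3.3) on log2(TPM + 1). A mean was fitted for each of the 4 groups to all 8 libraries, followed by eBayes with a trend, and two-sided p-values were adjusted by Benjamini-Hochberg over all genes tested. The spread is thus shared by the groups. The test was checked on simulated data. The 36 members, the wider list and the markers were chosen with earlier results of these data known. Values in every library are given for Nfe2l2, Keap1, the mitochondrial enzymes and their counterparts, and members called with a log2 difference of at least 0.5 in CypD KO minus WT or CypD OE minus Control; of the wider list, the 5 largest called differences in each of these are named. Gene positions are those of the GRCm39 annotation. Ratios and sums were computed with Python 3.11.15. Alternatives were a pseudocount of 0.1, no filter, a filter of 5 TPM, median-of-ratios scaling, a total without genes of mitochondrial DNA, eBayes without trend, fits of the 4 libraries compared, a replicate block and leaving out each library.

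The replicate numbers come from the suffix of the second library of each group, and no source used here says what they pair.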

Additional observations from a re-analysis of the deposited data

How the results depend on the processing

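No called difference of a member changed direction under any alternative. Of the members called, 17 of 25 in CypD KO minus WT, 17 of 19 in CypD OE minus Control and 13 of 19 in Control minus WT kept their call in all 16 alternatives. The 2 members called higher in Control minus WT (Gpx8 and Sod3) became 1 without a filter, with eBayes without trend and in the fit of the 4 libraries compared, and 1 to 2 when single libraries were left out, because Gpx8 lost its call (adjusted p = 0.0514 to 0.128). When single libraries were left out, 10 to 13 members were called higher and 8 to 12 lower in CypD KO minus WT, 12 to 14 and 6 to 7 in CypD OE minus Control, and 12 to 16 lower in Control minus WT. The calls over all genes also fell in both directions whenever a single library was left out. In Control minus WT they fell from 1634 higher and 1635 lower to 998 and 983 in the fit of the 4 libraries compared. With Prdx3 set against the mean of Prdx1, Prdx2 and Prdx6, the mean mitochondrial to cytosolic ratio was 0.30 higher in CypD KO than in WT instead of 0.39.

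With replicate number as a block, 13 members were called higher and 9 lower in CypD KO minus WT (3894 and 2391 over all genes). CypD OE minus Control had 13 and 6 (2393 and 2342 over all genes), and Control minus WT had 3 and 15 (1448 and 1438). Deviations of same-numbered libraries from their group means had correlations of -0.0295 to 0.108 across genes, the largest for WT and CypD KO. With 2 libraries per group, these values neither show a pairing nor exclude one. Genes of a few hundredths of a TPM cannot be compared, and 2 libraries per group limit the precision of every difference.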
